A study of Mus musculus with 12 samples.

Results

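The genes described here are 10 components and targets of the hypoxia-inducible factor (HIF) pathway, chosen by symbol: Hif1a, Hif3a, Epas1, Egln1, Egln3, Vegfa, Ankrd37, Bnip3, Ddit4 and Hilpda. All 10 were found among the 28694 gene rows of the 4 gene expression libraries. The meninges, the membranes that wrap the brain, were taken from C57Bl/6j pups at postnatal day 4. Pups of the HI group had undergone hypoxia-ischemia, which restricts both blood flow and oxygen as can happen in injury around birth, 6 h earlier, and naive pups had not. The 4 libraries (naive 1, naive 2, HI 1 and HI 2) each combined 12 mice, of which 6 were male and 6 female. No sham group was analysed here, so surgery and handling cannot be told apart from HI. The libraries were made in a pair of runs, each with an HI and a naive pool, but the labels do not say which library belongs to which run. Nothing else in the labels says how the pools relate, and p-values measure the spread between these pools only.

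HIF is a transcription factor made of an oxygen-regulated alpha subunit and a stable partner. With oxygen present, prolyl hydroxylases of the Egln family mark the alpha subunit for destruction, so HIF-1 alpha is controlled mainly as a protein and its mRNA need not change in hypoxia. When oxygen falls, HIF binds short motifs with the core ACGTG or GCGTG and raises genes for glucose use, vessel growth, mitophagy and lipid storage, and also some of its own brakes. Hif3a and Egln3 are known as such feedback genes, and Epas1, which encodes HIF-2 alpha, is best known from endothelial cells.

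The 4 libraries held 4213 to 6421 barcodes and 51986763 to 68543046 UMIs (unique molecular identifiers, each standing for 1 captured RNA molecule). There were 21476 distinct barcode sequences, of which 244 occurred in more than 1 library. Filtering kept 20725 cells, with 4070 to 6081 per library. Cells were gated by marker lists: 15156 border-associated macrophages, 2390 microglia and smaller classes, with 808 cells (3.90%) left without a class. Levels are given as CPM, the UMIs of a gene scaled to the summed UMIs of its class in that library. Macrophages carried 22496 to 23574 CPM of the border macrophage markers and 1779 to 2023 CPM of the microglia markers per library. Microglia carried 1113 to 1377 CPM of the former and of the latter 9458 and 9849 CPM in naive 1 and 2 and 7301 and 8732 CPM in HI 1 and 2. Libraries did not stand apart in depth, with a median of 9823 to 11211 UMIs per macrophage. RNA of other cells did move with the groups: in macrophages the summed neuron and glia markers were at 194 and 154 CPM in naive 1 and 2 and at 49.1 and 78.4 CPM in HI 1 and 2, and all 8 had a UMI. Choroid plexus markers, of which all 7 had a UMI, were at 228 and 131 CPM in naive 1 and 2 and at 24.0 and 21.4 CPM in HI 1 and 2.

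The windows upstream of the genes that rose in macrophages or monocytes are shown first, to show where the HIF core motif occurs in genes that rose. Each is the 250 bases before an annotated start site from RefSeq (GRCm38.p6), written 5′ to 3′ on the gene's strand. Capitals mark ACGTG or GCGTG on either strand (CACGT or CACGC when read on the other strand), and matches that overlap are joined. The windows are chr7:17062428-17062677 for Hif3a, chr12:54203875-54204124 for Egln3, chr8:45999851-46000100 for Ankrd37, chr7:138909507-138909756 for Bnip3, chr10:59951771-59952020 for Ddit4 and chr6:29272376-29272625 for the second listed start of Hilpda, all on the minus strand except Hilpda.
Hif3a: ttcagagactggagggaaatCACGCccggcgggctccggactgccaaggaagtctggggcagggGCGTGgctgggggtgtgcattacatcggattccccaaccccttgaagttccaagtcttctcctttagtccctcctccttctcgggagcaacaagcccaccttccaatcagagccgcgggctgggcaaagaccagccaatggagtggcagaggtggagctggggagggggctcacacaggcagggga
Egln3: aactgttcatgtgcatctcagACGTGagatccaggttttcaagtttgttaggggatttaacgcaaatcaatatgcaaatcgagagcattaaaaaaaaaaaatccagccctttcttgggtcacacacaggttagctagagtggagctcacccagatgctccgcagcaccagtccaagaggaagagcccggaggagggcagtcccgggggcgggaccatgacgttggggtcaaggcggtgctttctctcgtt
Ankrd37: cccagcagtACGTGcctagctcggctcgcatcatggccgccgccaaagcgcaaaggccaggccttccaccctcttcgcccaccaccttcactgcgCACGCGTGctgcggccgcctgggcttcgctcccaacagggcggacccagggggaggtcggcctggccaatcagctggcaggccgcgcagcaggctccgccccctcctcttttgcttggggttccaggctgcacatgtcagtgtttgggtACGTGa
Bnip3: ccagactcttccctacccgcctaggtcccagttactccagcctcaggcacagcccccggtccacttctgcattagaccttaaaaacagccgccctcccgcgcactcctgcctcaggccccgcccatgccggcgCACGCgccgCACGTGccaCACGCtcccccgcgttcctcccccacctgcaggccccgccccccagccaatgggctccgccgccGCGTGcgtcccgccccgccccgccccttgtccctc
Ddit4: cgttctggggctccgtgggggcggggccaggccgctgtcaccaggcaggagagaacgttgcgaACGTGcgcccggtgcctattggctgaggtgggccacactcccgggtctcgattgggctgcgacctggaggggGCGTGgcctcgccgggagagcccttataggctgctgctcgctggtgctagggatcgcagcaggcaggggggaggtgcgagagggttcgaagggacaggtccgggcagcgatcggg
Hilpda: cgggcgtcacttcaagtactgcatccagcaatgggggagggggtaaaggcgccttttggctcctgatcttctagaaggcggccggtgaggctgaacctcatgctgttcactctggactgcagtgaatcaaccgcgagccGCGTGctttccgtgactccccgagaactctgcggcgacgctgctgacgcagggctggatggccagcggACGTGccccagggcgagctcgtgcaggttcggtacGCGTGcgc

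The motif occurred 5 times upstream of Bnip3, 4 times upstream of Ankrd37, 3 times in the Hilpda window shown, 2 times each upstream of Hif3a and Ddit4, and 1 time upstream of Egln3. Matches on each strand were counted separately. The CACGTG of Bnip3 (−108 and −107) therefore counts as 2, as does the joined stretch of Ankrd37 (−155 and −152). Both Hif3a matches had the GCGTG form, with first bases at −230 and −186 from the start site. Of the other windows, Hif1a held 3 matches, of which 2 were the strands of 1 CACGTG (−135 and −134), and Egln1 held 2. The first listed starts of Vegfa and Hilpda held 0, while the second start of Vegfa held 2. Epas1 was not matched to a window, so 9 of 10 genes had one. Such matches are common: 38.6% of all 32851 windows of that length held at least 1, 16.7% at least 2 and 6.58% at least 3. A match is a description of the letters and says nothing about binding.

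Macrophages of HI pools had more mRNA of feedback components and of some targets, while Hif1a mRNA did not pass the test. Hif3a, Egln3, Ankrd37 and Bnip3 rose, with Hif3a 4.47-fold and Egln3 9.06-fold higher. In microglia, none of the 8 genes that could be tested passed the threshold in the main fit, which did not pair libraries. Some alternative settings, paired or not, did call Egln3 or Bnip3 lower in microglia, as the closing section gives. Egln3 lay in the opposite direction there. Tests used edgeR's quasi-likelihood method on UMI counts summed per class and library, 2 HI against 2 naive pools, with Benjamini-Hochberg adjustment over all genes of the class at 0.05. Of the 10 genes, 9 passed the filter on low counts in macrophages and 4 were called higher and 0 lower, beside 2.62% called higher among all 13285 genes tested (2.18% lower and 4.79% in either direction). Their median log2 change was 0.48, beside 0.00 over all genes tested.

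**Figure D1:**
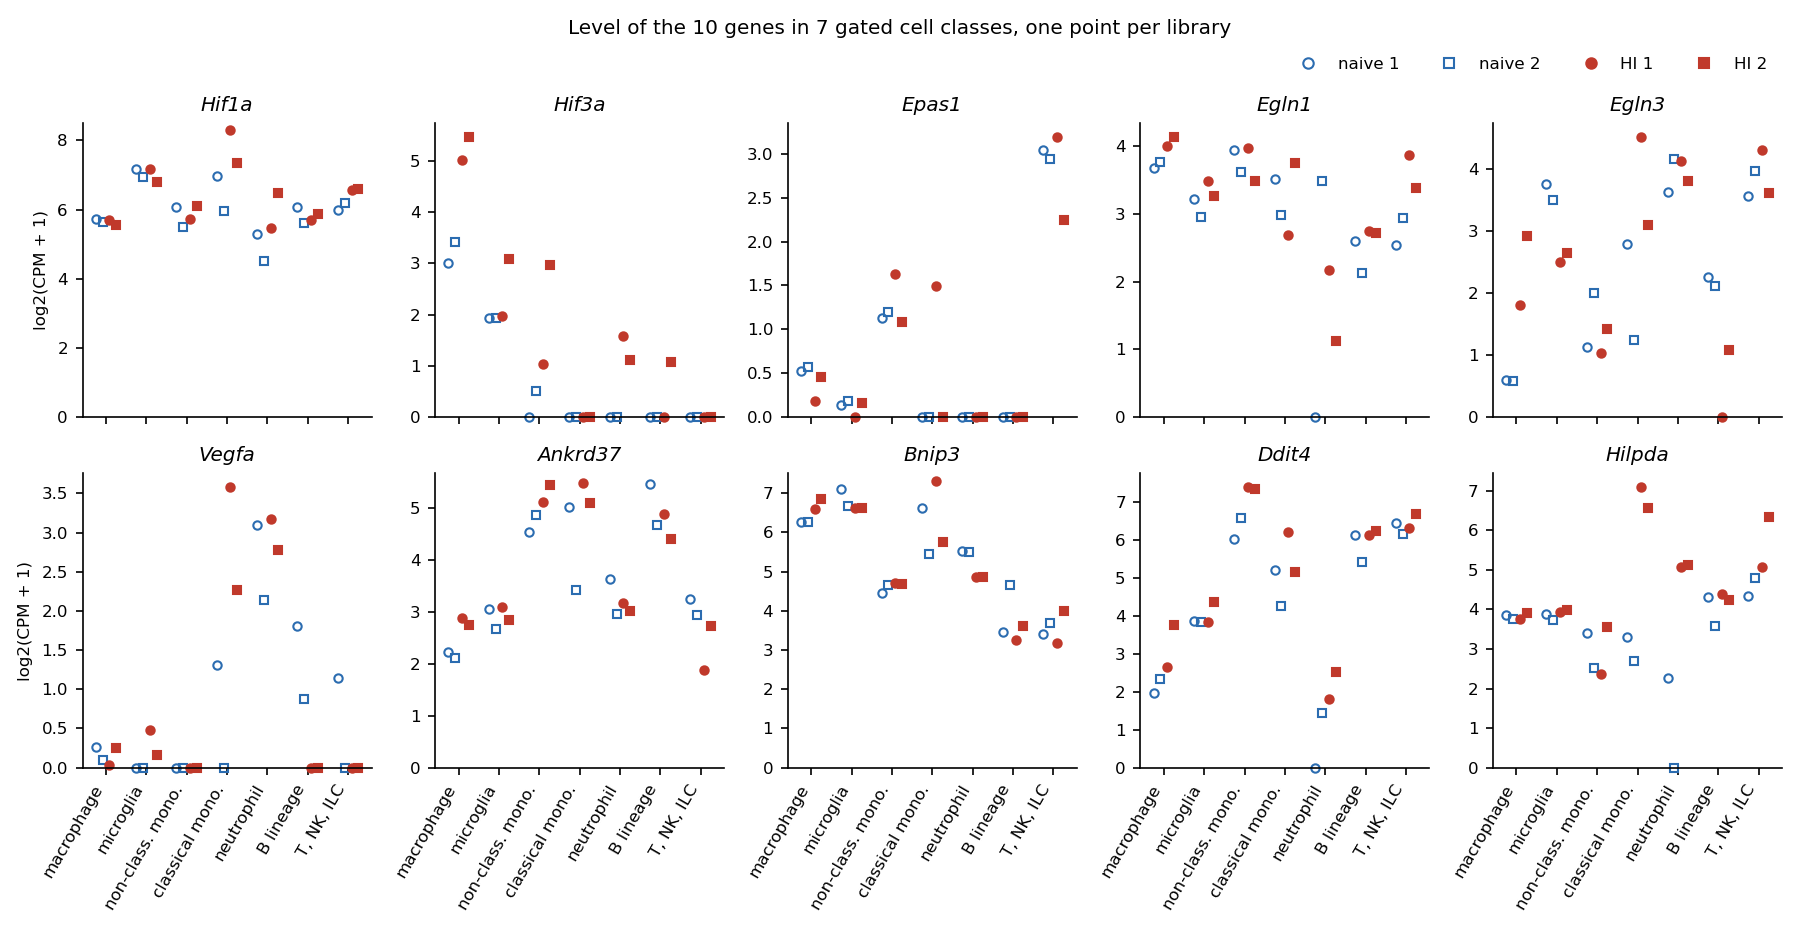
Level of each of the 10 genes as log2(CPM + 1) in 7 gated cell classes, with 1 point per library (open blue, naive; filled red, HI; circle, pool 1; square, pool 2). Hif3a is highest in macrophages, where both HI pools lie above both naive pools, and Egln3 in naive pools is low in macrophages and higher in microglia, neutrophils and lymphoid cells.

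Among the oxygen-regulated alpha subunits, Hif1a was present in every gated class. Its macrophage level was 52.5 CPM in naive 1, 49.0 in naive 2, 51.1 in HI 1 and 46.2 in HI 2. The 2 groups overlapped, with a log2 change of −0.04 (SE 0.06, edgeR adjusted p = 0.728). In microglia Hif1a was at 144, 122, 144 and 110 CPM in the same order of libraries, again overlapping, with a log2 change of −0.08 (SE 0.13, edgeR adjusted p = 0.809). The naive level was 2.63-fold higher in microglia than in macrophages (log2 1.40, SE 0.07, edgeR adjusted p = 2.2e-07), in both naive pools. That contrast has a large background, since 60.6% of the 12965 genes tested differed in level between the 2 classes (27.9% higher and 32.7% lower in microglia). In the naive pools, over 7 classes, Hif1a was highest in microglia (133 ± 15.5 CPM, SD, n = 2) and lowest in neutrophils (30.0 ± 11.2 CPM, SD, n = 2), and each neighbour in the order overlapped the next except macrophages and neutrophils at the low end. In the HI pools the order differed, with classical monocytes highest (238 ± 109 CPM, SD, n = 2), microglia next (127 ± 23.8) and macrophages lowest (48.6 ± 3.49).

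Hif3a encodes HIF-3 alpha, of which several splice forms are known to restrain the other alpha subunits; the gene counts used here do not separate the forms. In macrophages it was at 7.05 CPM (284 UMIs) in naive 1, 9.68 (441) in naive 2, 31.1 (1105) in HI 1 and 42.8 (2040) in HI 2. Both HI pools lay above both naive pools. The log2 change was 2.16 (SE 0.20, edgeR adjusted p = 0.00463), and it stayed past the threshold in each of the 13 alternative settings run, between 1.89 and 2.42. Without cells that carried neuron, choroid plexus or neutrophil RNA it was 2.19, about as large. The share of macrophages with at least 1 Hif3a UMI was 7.43% (95% exact binomial interval 6.58 to 8.36) in naive 1 and 9.24% (8.38 to 10.2) in naive 2. It was 26.2% (24.6 to 27.8) in HI 1 and 31.6% (30.2 to 33.0) in HI 2, and these intervals cover counting error only. After thinning every cell to 5000 UMIs the shares were 3.53%, 4.55%, 13.8% and 18.5%, so the order held, with 144 to 388 shallower cells per library left out. Classical monocytes, a blood-derived class of similar depth, gave 0 Hif3a UMIs in all 4 libraries (0 of 99 cells in HI 2, at a median of 9018 UMIs per cell). Taking 3 cells as the most that a count of 0 allows, the share of cells with a UMI could be up to 3.03% there, which does not limit the share of cells expressing the gene.

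Of the 7 classes compared in naive pools, Hif3a was highest in macrophages (8.37 ± 1.86 CPM, SD, n = 2), followed by microglia (2.82 ± 0.03), with no overlap between the 2. The microglia level was 2.84 CPM in naive 1, 2.80 in naive 2, 2.94 in HI 1 and 7.52 in HI 2. Only HI 2 stood above the rest, and the log2 change of 0.89 (SE 0.42) had an edgeR adjusted p of 0.351. The difference in HI change, microglia minus macrophages, was −1.31 (SE 0.33, edgeR adjusted p = 0.164), which did not pass. Over 11 alternatives it lay between −1.87, without HI 2, and −0.93, and in 9 of them it did not pass either. In the naive pools Hif3a was 2.89-fold lower in microglia than in macrophages (log2 −1.53, SE 0.23, edgeR adjusted p = 3.14e-04). Non-classical monocytes, which patrol vessel walls, had 0, 1, 1 and 12 Hif3a UMIs in naive 1, naive 2, HI 1 and HI 2.

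Epas1 was close to the detection floor in myeloid cells. Macrophages held 18, 22, 5 and 18 UMIs in naive 1, naive 2, HI 1 and HI 2, that is 0.45, 0.48, 0.14 and 0.38 CPM. The log2 change of −0.75 (SE 0.48) had an edgeR adjusted p of 0.395. Microglia held 1, 1, 0 and 1 UMIs, where 3 UMIs would be 0.32 to 0.42 CPM. Among the 7 classes the highest level was in T, NK and innate lymphoid cells, with 7.23, 6.67, 8.10 and 3.74 CPM, which rests on 2 to 6 UMIs per library. Of 7 endothelial and mural markers, 4 had a UMI in microglia and all 7 in macrophages, with sums of 12.4 to 19.3 CPM and 3.10 to 5.14 CPM per library. In microglia most of that sum was Pecam1, at 9.67 to 14.7 CPM, while Cldn5 was at 0 in all 4 libraries; in macrophages Cldn5 was at 0.14 to 0.48 CPM.

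Of the prolyl hydroxylases, Egln1 encodes the enzyme held to be the main oxygen sensor of the pathway. In macrophages it was at 11.8 and 12.6 CPM in naive 1 and 2 and at 14.98 and 16.4 CPM in HI 1 and 2. The groups did not overlap, but the log2 change of 0.39 (SE 0.10) missed the threshold (edgeR adjusted p = 0.0663). In microglia the values were 8.31, 6.73, 10.1 and 8.60 CPM, with a log2 change of 0.29 (SE 0.20, edgeR adjusted p = 0.537). The naive level was 1.59-fold lower in microglia than in macrophages (log2 −0.67, SE 0.15, edgeR adjusted p = 0.00404); without naive 2 that adjusted p was 0.0942.

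Egln3 encodes a prolyl hydroxylase whose own gene is a known HIF target. Its macrophage level was 0.52 CPM (21 UMIs) in naive 1, 0.50 (23) in naive 2, 2.50 (89) in HI 1 and 6.55 (312) in HI 2. Both HI pools were above both naive pools, and HI 2 was well above HI 1. The log2 change was 3.18 (SE 0.50, edgeR adjusted p = 0.0204). Without naive 1 the log2 change was 3.20 but the adjusted p was 0.0989, and without HI 2 it was 2.28 with an adjusted p of 0.00402. The UMIs were spread over many macrophages: 20 of 3432 cells in naive 1, 23 of 4198 in naive 2, 78 of 2971 in HI 1 and 271 of 4555 in HI 2 had at least 1, and no cell had more than 4. Those shares were 0.583%, 0.548%, 2.63% and 5.95%, and after thinning 0.213%, 0.310%, 1.103% and 2.64%. Macrophages had the lowest Egln3 level of the 7 classes in naive pools, and a share as low as theirs cannot be told apart from free RNA.

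In microglia Egln3 was at 12.5 CPM (119 UMIs) in naive 1, 10.4 (74) in naive 2, 4.67 (35) in HI 1 and 5.26 (44) in HI 2. Both HI pools were below both naive pools. The log2 change was −1.22 (SE 0.20), with an edgeR adjusted p of 0.0512, just short of the threshold, and between 8.5e-06 and 0.393 over the 12 alternatives with an adjusted value. DESeq2 gave no adjusted p for it. The share of microglia with a UMI was 10.9% in naive 1, 7.97% in naive 2, 5.10% in HI 1 and 4.98% in HI 2, and 1 naive 2 cell held 16 of the UMIs. Of the microglia fit as a whole, 8 of the 10 genes were tested and 0 were called by edgeR and by DESeq2, with 2 at an unadjusted p under 0.05 (Egln3 and Bnip3), beside 0.263% called higher, 0.236% lower and 0.499% in either direction among 11013 genes.

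Markers also moved with the groups in microglia. P2ry12, a receptor gene that marks homeostatic microglia, was at 2522, 2664, 1375 and 2023 CPM in naive 1, naive 2, HI 1 and HI 2, with no overlap between the groups. Neuron and glia markers, of which all 8 had a UMI, summed to 49.1, 30.1, 13.5 and 21.3 CPM. Neutrophil markers, with all 10 seen, summed to 82.1, 173, 325 and 79.3 CPM, highest in HI 1. Without cells that carried neuron, choroid plexus or neutrophil RNA the Egln3 change in microglia was −1.23 (edgeR adjusted p = 0.0592), about as large; the part of the P2ry12 difference in it was not tested.

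The difference between the classes was tested directly. In naive pools Egln3 was 22.1-fold higher in microglia than in macrophages (log2 4.47, SE 0.30, edgeR adjusted p = 1.41e-06). In HI pools the macrophage values of 2.50 and 6.55 CPM enclosed the microglia values of 4.67 and 5.26 CPM. The HI change in microglia minus that in macrophages was −4.31 (log2, SE 0.41, edgeR adjusted p = 0.0036). Egln3 was the 1 gene of the 9 tested that passed in this contrast, beside 0.417% of 12965 genes called lower, 0.0771% higher and 0.494% in either direction. Leaving out naive 1 gave −4.19 with an adjusted p of 0.184, leaving out naive 2 gave −4.43 with 0.0619, and leaving out HI 2 gave −3.57 with 0.00295. DESeq2 gave Egln3 no adjusted p in this contrast. Without cells that carried neuron, choroid plexus or neutrophil RNA the value was −4.42, about as large.

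**Figure D2:**
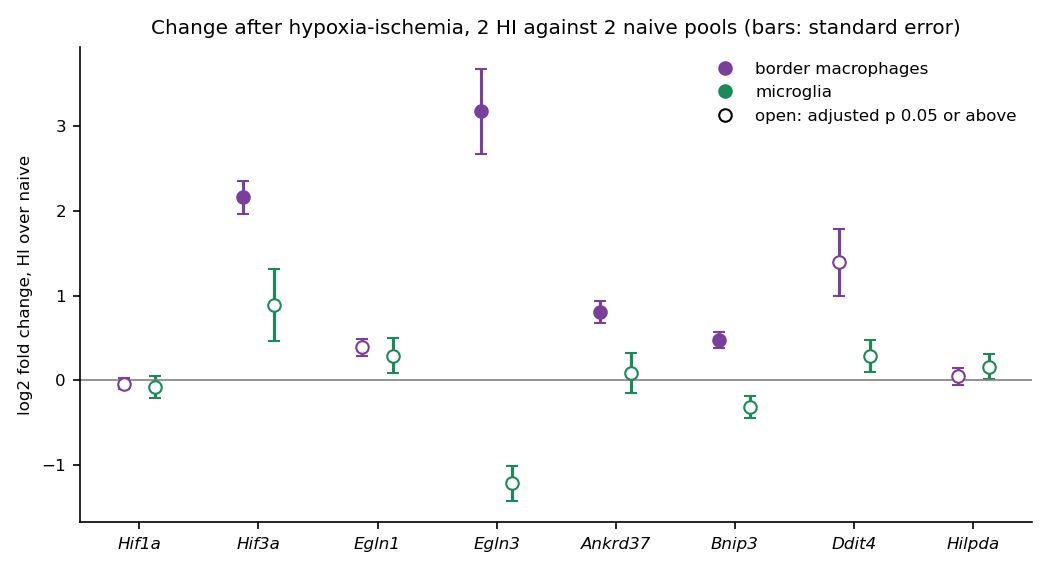
Log2 fold change of HI over naive (y axis) for the 8 genes tested in both macrophages (purple) and microglia (green); bars are standard errors, filled points passed an adjusted p of 0.05. Egln3 stands at 3.18 in macrophages and at −1.22 in microglia, and Hif1a and Hilpda stand near 0 in both.

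All 20725 kept cells were also clustered without using any of the 10 genes, and the gated macrophages and microglia of each cluster were summed per library. Of 16 clusters with at least 15 gated macrophages in every library, Hif3a had both HI pools above both naive pools in 14 and Egln3 in 14. Among all genes tested in macrophages, 0.64% reached 14 of 16 clusters, and 18.3% of gene and cluster pairs had that order. Hif3a in HI pools ranged from a mean of 14.3 CPM in the lowest macrophage cluster to 60.6 CPM in the highest. Cluster 3 was the highest, with 57.5 CPM in HI 1 and 63.6 in HI 2, beside 7.90 and 6.88 in naive 1 and 2. Bnip3 had the order in 12 clusters and the reverse in 1, Ddit4 had it in 11, Ankrd37 in 10, and Egln1 in 7 with the reverse in 1. Hif1a had both HI pools below both naive pools in 7 of the 16 and above them in 1, beside 18.9% of gene and cluster pairs with the lower order.

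Of the 4 microglia clusters, 3 had both HI pools below both naive pools for Egln3, an order that 5.82% of genes reached in at least 3 of 4 clusters. Levels differed between these clusters. In cluster 11 Egln3 was at 26.9, 21.1, 8.07 and 17.7 CPM in naive 1, naive 2, HI 1 and HI 2. In cluster 4 it was at 4.78, 0.90, 0.38 and 0.47 CPM. Cluster 11 also had more Hif1a, with 235, 207, 197 and 203 CPM beside 109, 91.4, 103 and 84.2 CPM in cluster 4, and all cells of the cluster, gated or not, had a median of 19576 UMIs beside 9675 in cluster 4. Cluster 24, with as few as 34 cells in a library, did not share the order.

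**Figure D3:**
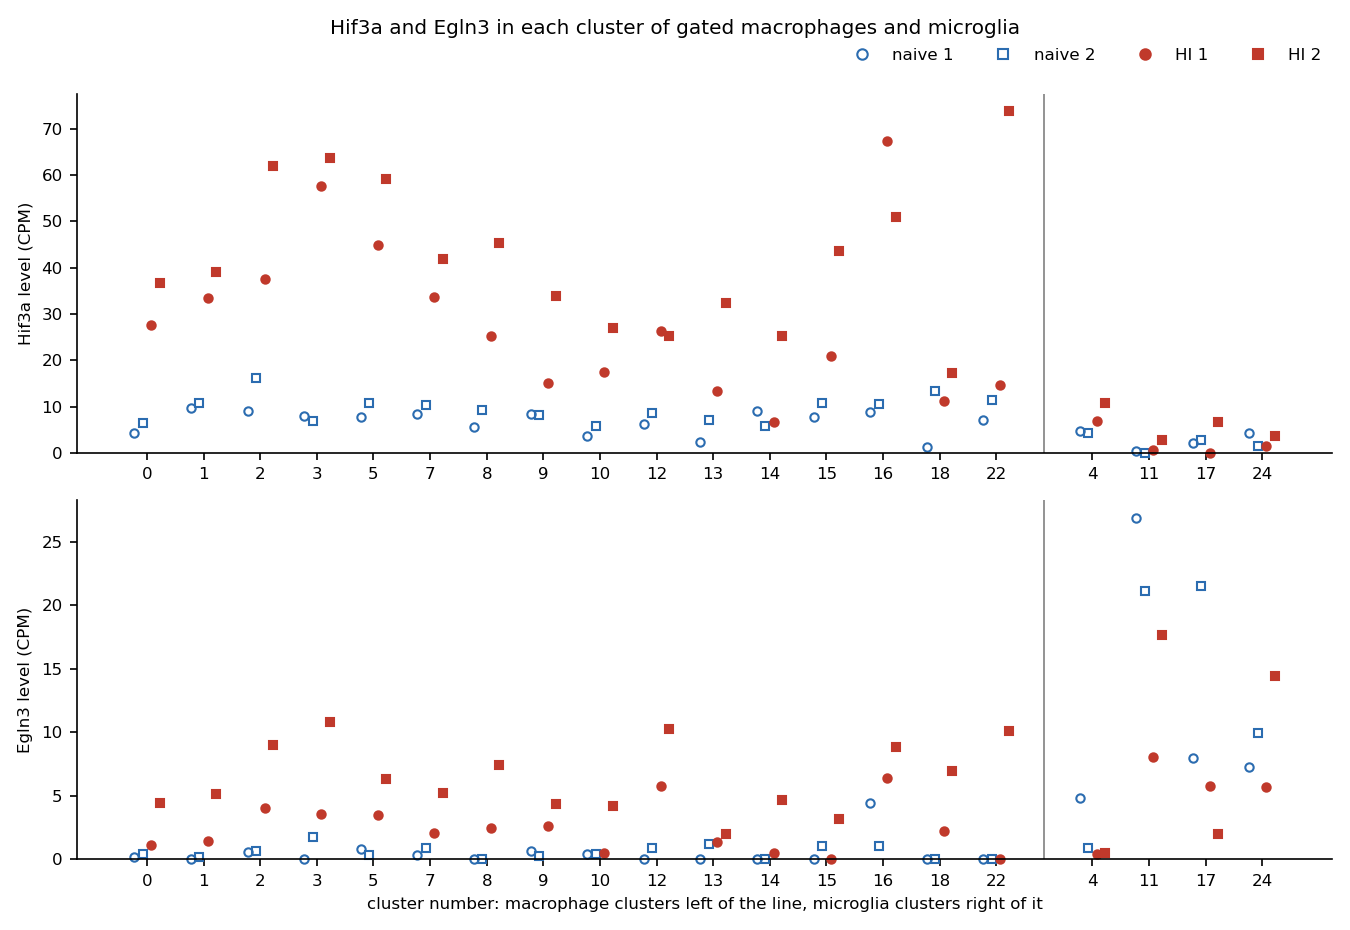
Hif3a (top) and Egln3 (bottom) in CPM for each cluster of gated macrophages (left of the line) and microglia (right), with 1 point per library (open blue, naive; filled red, HI). In 14 of 16 macrophage clusters both HI pools lie above both naive pools for each gene, and in 3 of 4 microglia clusters Egln3 in both HI pools lies below both naive pools.

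Among the targets, Bnip3 encodes a mitochondrial protein that takes part in mitophagy. It was at 75.7 and 76.5 CPM in naive 1 and 2 and at 95.1 and 113.7 CPM in HI 1 and 2 in macrophages. The groups did not overlap, and the log2 change was 0.48 (SE 0.09, edgeR adjusted p = 0.0375); the adjusted p was 0.178 without naive 1 and 0.0615 without naive 2. In microglia it was at 137, 102, 96.9 and 97.0 CPM in naive 1, naive 2, HI 1 and HI 2, with a log2 change of −0.32 (SE 0.13, edgeR adjusted p = 0.282). The difference of the 2 changes was −0.77 (SE 0.15, edgeR adjusted p = 0.0639). Over the 12 alternatives it lay between −0.99 and −0.53 and passed in 6, with adjusted p from 9.24e-15 with no filter on low counts to 0.666 without naive 1; without HI 1 the adjusted p was 5.4e-05, and DESeq2 gave 0.0153. Naive microglia had 1.57-fold more Bnip3 than naive macrophages (log2 0.65, SE 0.10, edgeR adjusted p = 4.33e-04). Microglia with at least 5 Bnip3 UMIs numbered 76 of 690 in naive 1, 35 of 527 in naive 2, 39 of 510 in HI 1 and 32 of 663 in HI 2. They held 756 of 1305, 300 of 726, 322 of 726 and 343 of 812 UMIs. Of 4 microglia clusters, 1 had both HI pools above both naive pools for Bnip3 and 1 had them below.

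Ankrd37, an ankyrin repeat gene commonly used as a marker of HIF activity, was at 3.67 and 3.29 CPM in naive 1 and 2 and at 6.33 and 5.73 CPM in HI 1 and 2 in macrophages. Its log2 change was 0.81 (SE 0.13, edgeR adjusted p = 0.0208), with an adjusted p of 0.0843 without naive 1 and 0.0633 without naive 2. In microglia it was at 7.26, 5.33, 7.48 and 6.21 CPM in naive 1, naive 2, HI 1 and HI 2, and the groups overlapped (log2 0.09, SE 0.23, edgeR adjusted p = 0.895). The difference of the changes was −0.70 (SE 0.23, edgeR adjusted p = 0.292). The naive level was 1.82-fold higher in microglia (log2 0.86, SE 0.17, edgeR adjusted p = 0.002), with an adjusted p of 0.0862 without naive 1. Ankrd37 overlaps the protein-coding gene Ufsp2 in the annotation, Bnip3 a pseudogene, and Hif1a and Egln1 each a long non-coding RNA, and the strand setting of the counting is not given in the sources used here.

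Ddit4 encodes REDD1, an inhibitor of the growth kinase complex mTORC1 that responds to low oxygen and also to stress hormones. In macrophages it was at 2.88, 4.08, 5.26 and 12.6 CPM in naive 1, naive 2, HI 1 and HI 2. Both HI pools were above both naive pools, but HI 2 was far above HI 1, and the log2 change of 1.39 (SE 0.39) had an edgeR adjusted p of 0.0923. In microglia the values were 13.6, 13.2, 13.4 and 19.5 CPM (log2 0.29, SE 0.19, edgeR adjusted p = 0.521). Naive microglia had 3.90-fold more than naive macrophages (log2 1.96, SE 0.21, edgeR adjusted p = 3.24e-05).

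In non-classical monocytes Ddit4 passed the test. It was at 64.0 CPM (107 UMIs) in naive 1, 94.95 (221) in naive 2, 165 (158) in HI 1 and 161 (286) in HI 2, in 151 to 387 cells per library. Both HI pools lay above both naive pools. The log2 change was 0.98 (SE 0.15, edgeR adjusted p = 6.15e-04), and it passed in each of the 12 alternatives run, between 0.74 and 1.33. The fold was 1.97 there and 2.63 in macrophages, where the test was not passed, and a difference between these classes was not tested. Ddit4 was the 1 gene called of 6 tested in that class, beside 0.869% called higher, 1.1% lower and 1.97% in either direction among 8168 genes. The share of cells with a UMI was 24.3% in naive 1, 29.5% in naive 2, 41.7% in HI 1 and 41.8% in HI 2, at medians of 5573 to 6038 UMIs per cell. In neutrophils, where Ddit4 was lowest of the 7 classes in naive pools, the UMIs were 0, 1, 5 and 4. Neutrophil markers in the non-classical monocytes summed to 227, 507, 551 and 1647 CPM in naive 1, naive 2, HI 1 and HI 2; their part in the result was not tested.

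Ankrd37 was also high in non-classical monocytes, at 22.1, 27.9, 33.5 and 42.3 CPM, where the log2 change of 0.59 (SE 0.22) did not pass (edgeR adjusted p = 0.246). Hif1a there was at 65.8, 44.3, 52.3 and 67.7 CPM (log2 0.17, SE 0.19, edgeR adjusted p = 0.837). Bnip3 was at 20.9 to 25.1 CPM in the 4 libraries, with a log2 change of 0.09 (SE 0.23, edgeR adjusted p = 0.943).

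Hilpda encodes a small lipid droplet protein that inhibits fat breakdown. Its macrophage level was 13.5, 12.6, 12.5 and 14.04 CPM in naive 1, naive 2, HI 1 and HI 2. Its microglia level was 13.7, 12.3, 14.4 and 14.9 CPM. The log2 changes were 0.05 (SE 0.10, edgeR adjusted p = 0.821) and 0.16 (SE 0.15, edgeR adjusted p = 0.658), and the naive levels of the classes differed by 0.00 (log2, SE 0.11, edgeR adjusted p = 0.98). All 8 values lay between 12.3 and 14.9 CPM.

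In classical monocytes, the inflammatory blood monocytes, Hilpda was called higher: 8.94 CPM (6 UMIs) in naive 1, 5.53 (4) in naive 2, 135 (74) in HI 1 and 94.2 (99) in HI 2. The log2 change was 3.95 (SE 0.37, edgeR adjusted p = 0.00284), the 1 gene called of 5 tested, beside 0.8% called higher among 6497 genes. With 6 and 4 UMIs in the naive pools, Hilpda passed the filter on low counts only through the HI pools, where it was high. The count of 1 in 5 is not independent of that. The class held 60, 69, 42 and 99 cells, and the UMIs were concentrated in a few of them. In HI 1, 3 cells with at least 5 UMIs held 72 of the 74, and in HI 2, 3 such cells held 91 of the 99, with 34 and 50 UMIs in the richest cell. No naive cell had more than 2. The share of cells with any Hilpda UMI was 8.33% (95% exact binomial interval 2.76 to 18.4) in naive 1 and 5.80% (1.60 to 14.2) in naive 2. It was 11.9% (3.98 to 25.6) in HI 1 and 9.09% (4.24 to 16.6) in HI 2 (intervals of counting error only). Both HI shares lay above both naive shares, but the intervals of all libraries overlapped. The shares rest on 5, 4, 5 and 9 cells in naive 1, naive 2, HI 1 and HI 2. The share was not tested between the groups. The call rests on these 6 cells, all of them in cluster 19; the other cells held 2 UMIs in HI 1 and 8 in HI 2.

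Those 6 cells were chosen by their Hilpda counts, and their other values are given as a description. In HI 1 they held 13142, 40197 and 34123 UMIs in all, beside a class median of 11631. In HI 2 they held 8553, 19937 and 32940, beside 9018. UMIs of the neutrophil marker S100a8 were 519, 704 and 1047 in HI 1 and 120, 189 and 30 in HI 2. Those of the monocyte marker Ly6c2 were 7, 11 and 41 in HI 1 and 0, 24 and 23 in HI 2. Whether each is a single cell of this class was not tested. Hif1a was at 892 CPM in the 3 cells of HI 1 beside 206 CPM in the other cells of that class, and at 440 CPM beside 143 CPM in HI 2. The glucose transporter gene Slc2a1 was at 1006 CPM beside 90.9 CPM in HI 1 and at 456 CPM beside 80.8 CPM in HI 2. Ankrd37 and Bnip3 were also higher in these cells in both HI pools. Ddit4 was at 171.5 CPM beside 54.13 CPM in HI 1, but at 32.56 CPM beside 34.34 CPM in HI 2. Ndrg1 was not higher, at 0 CPM beside 10.83 CPM in HI 1 and 16.28 CPM beside 17.17 CPM in HI 2. Nor was Pdk1, at 11.43 CPM beside 12.99 CPM in HI 1 and 0 CPM beside 7.07 CPM in HI 2. Adm had 0 UMIs in the class in both HI pools. All Vegfa UMIs of the class in HI pools, 6 and 4, were in these cells. Egln1 had 0 UMIs in them, and Egln3 had 8 UMIs in 1 of the HI 1 cells and 0 in HI 2.

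Neutrophil markers in classical monocytes summed to 2796 CPM in naive 1, 3298 in naive 2, 15551 in HI 1 and 11552 in HI 2, with 9 of the 10 markers seen. Of the Hilpda UMIs, 73 of 74 in HI 1 and 44 of 99 in HI 2 were in cells that also scored for neutrophil, neuron or choroid plexus markers; the part of neutrophil RNA in the result was not tested. Gated neutrophils had too few cells in naive 1 (31) for a test. They held 1, 0, 65 and 29 Hilpda UMIs in 31, 69, 168 and 112 cells. Again 4 cells of HI 1 held 46 of 65 UMIs and 3 cells of HI 2 held 25 of 29. Hif1a in classical monocytes was at 125, 60.8, 315 and 161 CPM in naive 1, naive 2, HI 1 and HI 2, with a log2 change of 1.35 (SE 0.39, edgeR adjusted p = 0.199).

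Vegfa, the vascular growth factor gene often used as a readout of HIF, was scarce in all classes with at least 40 cells in each library. Macrophages held 8, 3, 1 and 9 UMIs in naive 1, naive 2, HI 1 and HI 2 (0.20, 0.07, 0.03 and 0.19 CPM), and microglia 0, 0, 3 and 1. Non-classical monocytes held 0 in all 4 libraries, where 3 UMIs would be 1.29 to 3.14 CPM. The counts were too low for a test in any class. Of the 7 classes in naive pools, neutrophils had the highest level, 7.58 CPM in naive 1 and 3.39 in naive 2, from 2 UMIs each, with 8.04 and 5.88 CPM in HI 1 and 2 from 16 and 5 UMIs.

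Macrophages were also split by Lyve1, a marker of perivascular and leptomeningeal macrophages, at 2 UMIs. The Lyve1 part held 271 of 284 Hif3a UMIs in naive 1, 414 of 441 in naive 2, 1057 of 1105 in HI 1 and 1980 of 2040 in HI 2. Its calls therefore largely repeat those of the whole class. In Lyve1 macrophages the same 4 genes were called higher, with log2 changes of 2.16 for Hif3a, 3.34 for Egln3, 0.80 for Ankrd37 and 0.48 for Bnip3, beside 2.9% called higher, 2.53% lower and 5.43% in either direction of 13154 genes. In the Lyve1-low cells, 7 genes were tested and 0 were called by edgeR, with 3 at an unadjusted p under 0.05, beside 0.342% called higher and 0.502% in either direction of 9363 genes. Hif3a there was at 3.84 (12 UMIs), 11.8 (27), 26.4 (46) and 34.3 CPM (60 UMIs), with a log2 change of 2.05 (SE 0.39, edgeR adjusted p = 0.0606). A difference between these subsets was not tested.

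Other genes of the pathway were taken from 3 lists that hold none of the 10 genes. Of 17 genes of the sensing and turnover machinery, all tested in macrophages, 0 were called by edgeR and 2 had an unadjusted p under 0.05; their median log2 change was −0.01. Of 20 HIF targets of glucose use, all tested, 10 were called higher and 0 lower, with a median of 0.35. Of 36 HIF targets outside glycolysis, 32 were tested and 4 were called higher and 0 lower, with a median of 0.04, beside the 2.62% of all genes given above. In microglia 0 genes of each list were called by edgeR, with 2, 4 and 7 at an unadjusted p under 0.05, beside 0.499% of all genes called in either direction. The median log2 changes of the lists there were −0.02, 0.20 and −0.01 in the same order, beside 0.00 over all genes tested. The glucose use genes thus had a median above that of all genes in microglia too, with no gene called.

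Slc2a1 was at 5.54, 5.58, 10.1 and 12.1 CPM in macrophages of naive 1, naive 2, HI 1 and HI 2 (log2 1.03, SE 0.13, edgeR adjusted p = 0.0116). Pgam1, a glycolytic mutase, was at 144 and 147 CPM in naive 1 and 2 and 255 and 296 in HI 1 and 2 (log2 0.94, SE 0.09, edgeR adjusted p = 0.00463). Slc16a3, a lactate exporter, Pfkl, a phosphofructokinase, and Pkm, the pyruvate kinase, also rose, each with both HI pools above both naive pools. Pdk1, the kinase that turns pyruvate away from the mitochondria, was at 28.3, 28.6, 44.1 and 45.4 CPM in macrophages (log2 0.67, SE 0.06, edgeR adjusted p = 0.00447). Its change in microglia was −0.15 (edgeR adjusted p = 0.504), and the difference of −0.82 between the classes passed (edgeR adjusted p = 0.00741), the 1 gene of the 3 lists to do so. Outside glycolysis, the genes that rose in macrophages were Gbe1, a glycogen branching enzyme, Higd1a, Mif and Fam162a, with log2 changes from 0.33 to 0.68.

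**Figure D4:**
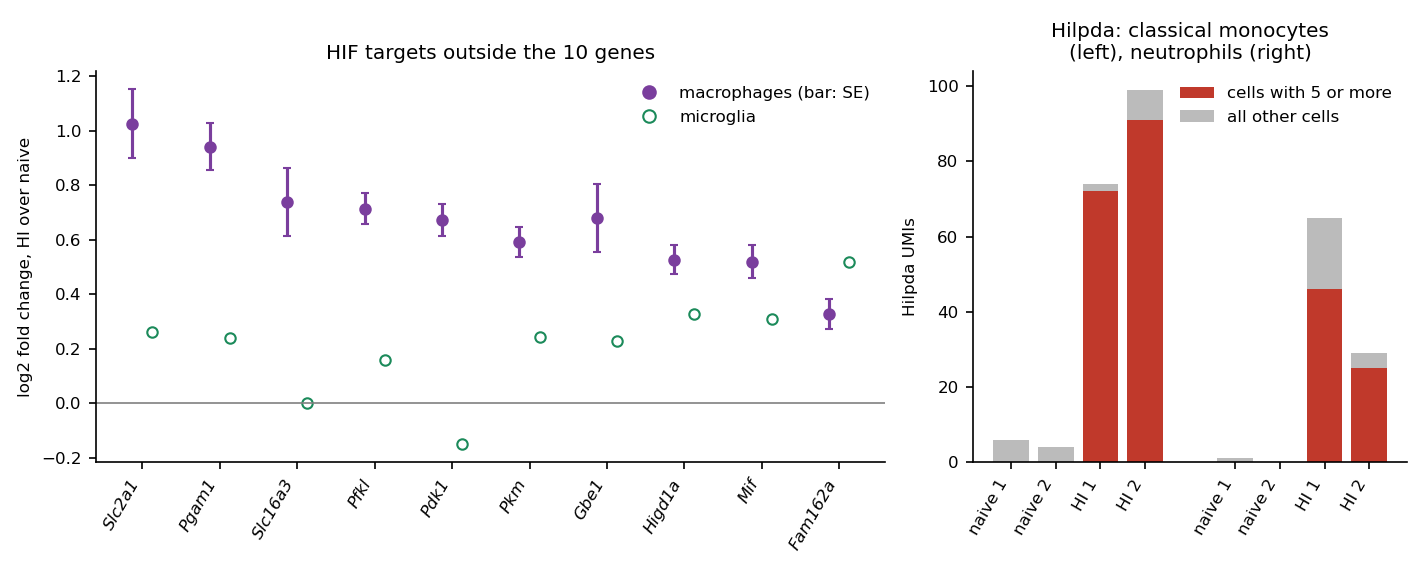
Left, log2 fold change of HI over naive for the named HIF targets outside the 10 genes, in macrophages (purple, bars are standard errors) and microglia (open green), none of which passed in microglia; Pdk1 stands at 0.67 and −0.15. Right, Hilpda UMIs per library in classical monocytes and neutrophils, with red for cells holding 5 or more UMIs and grey for all other cells; the red cells hold 72 of 74 UMIs in HI 1 and 91 of 99 in HI 2 of the classical monocytes.

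The genes most like each member were found by Pearson's r of log2(CPM + 1) over the 25 sums of class and library with at least 40 cells, which share libraries, depth and class identity, and are given with no test. Hif3a was most like Neil2 (0.91), Tspan8 (0.90) and Adam33 (0.89). Bnip3 was most like Cttnbp2nl (0.91), Ddit4 like Clcf1 (0.91), Ankrd37 like Gm15987 (0.91) and Egln1 like Abca3 (0.87). The highest r was lower for Hif1a (Cxcl14, 0.78), Hilpda (Cxcl3, 0.74) and Egln3 (Zfp281, 0.73). Epas1 with 116 UMIs and Vegfa with 87 in all kept cells were under the 200 UMIs required.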

How the data were processed

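Per the labels' protocols, the 4 gene expression libraries used a droplet 5' chemistry of 10x Genomics, and the authors deposited raw UMI counts (whole numbers) for each gene in each barcode, not normalized. The submitters' processing notes name Cell Ranger 2.2.0, Seurat 3.027, mm10 and GRCm38, with no role for each. Receptor libraries were not used here. Barcodes under 200 genes or over 10% mitochondrial UMIs were dropped, and those ranked highest by Scrublet (scanpy 1.11.5) were removed as doublets at 0.8% per 1000 barcodes. A cell took the class whose marker score (the mean of scaled log levels) was highest, at 0.25 or more and at least 0.1 above the next; 812 cells (3.92%) lay within 0.05 of either threshold. These thresholds and the doublet ranking were chosen after seeing the data. Leiden clusters (36, resolution 1.5, leidenalg 0.10.2) made without the 10 genes and the HIF lists served as other classes and placed 99.1% of gated macrophages and 96.5% of gated microglia in the same class.

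UMIs were summed per class and library, and classes that reached 40 cells in all 4 libraries were tested with edgeR 4.0.16 (R 4.3.3; quasi-likelihood, filterByExpr, TMM, Benjamini-Hochberg at 0.05), HI against naive. The class difference came from 1 model of both classes with library, class and class-by-HI terms. edgeR shrinks a gene's variance towards the common trend, so very small p-values rest in part on other genes. CPM were computed from the same sums. DESeq2 1.42.0 was the other tool. The code was tested on simulated data. Depth was 51986763 to 68543046 UMIs per library; at the smallest sums 3 UMIs stood for 2.85 to 5.46 CPM in classical monocytes and for 0.06 to 0.08 CPM in macrophages. The 10 genes and the lists were chosen with earlier results of these data known. All 10 genes are named in every class, and of the lists the genes past the threshold in macrophages or microglia, up to 6 each way per list and class by size of change. Alternatives were another tool, scaling without TMM, no filter, a replicate block, leaving out each library, cluster classes, cells free of other cell types' RNA, doublets kept, at most 5% mitochondrial UMIs and a stricter gate; the closing section gives their effect.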

Additional observations from a re-analysis of the deposited data

Results flagged for a closer look

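Egln3 was picked out because its change after HI differed between 2 cell classes by a direct test: microglia minus macrophages was −4.31 on the log2 scale (edgeR adjusted p = 0.0036). In macrophages Egln3 was higher in 2 of 2 HI pools than in either naive pool (0.52 and 0.50 CPM against 2.50 and 6.55 CPM), and in microglia it was lower in 2 of 2 HI pools (12.5 and 10.4 CPM against 4.67 and 5.26 CPM). The call was lost without naive 1 (adjusted p = 0.184) and without naive 2 (0.0619), with values of −4.19 and −4.43.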

How the results depend on the processing

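With 2 pools per group, 1 library can decide a call; where an arm was left with 1 pool, it was assumed to vary like the rest. Hif3a in macrophages, Ddit4 in non-classical monocytes and Hilpda in classical monocytes passed under each alternative run for them. Leaving out cells that carried neuron, choroid plexus or neutrophil RNA was not run for either monocyte class. Whether the Ddit4 and Hilpda calls there hold without such cells was therefore not tested. The number of the 10 genes called higher in macrophages was 4, and 1 to 6 when 1 library was left out (1 without naive 1 and 2 without naive 2); over all genes the calls went from 637 to 87 and 405 there. The number called lower in microglia was 0, and 1 under library size alone, with doublets kept and under the stricter gate, 2 with no filter on low counts, and 0 to 2 when 1 library was left out; the number called higher there was 0 to 1. In classical monocytes the number called higher was 1, and 2 with no filter and under the stricter gate, and 1 to 2 when 1 library was left out. The number whose change was lower in microglia than in macrophages was 1, and 4 with no filter, 2 without cells carrying RNA of other types, with doublets kept and under the stricter gate, and 0 to 3 when 1 library was left out. The number with a lower naive level in microglia was 2, and 1 to 2 when 1 library was left out. With no filter on low counts 830 genes were called in microglia, beside 55. The cause of these shifts was not tested. Calls over all genes are printed here for some of the alternative settings only. Where they are not printed, a change in a count is not read as a result about the 10 genes. Settings added after seeing the data were the stricter gate and the cell filters for the class contrasts.

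Whether replicate numbers pair the libraries was checked in macrophages only. Deviations of same-numbered libraries from their group means had a correlation of 0.19 over 13285 genes, with 2 pairs of libraries. The labels tie no number to a run, so the numbers are not taken as pairs. Pairing was not checked in microglia or classical monocytes, where a replicate block changed the calls, so whether the block is right there was not tested. With the replicate block, 2 of the 10 genes were called lower in microglia (Egln3 with an edgeR adjusted p of 3.23e-04 and Bnip3 with 0.0204) and 2 higher in classical monocytes (Hilpda and Hif1a), and all genes called in microglia rose from 55 to 1029.

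Values that changed sign were all short of the threshold. With 1 library left out, Hif1a went from −0.095 to 0.013 in macrophages, −0.28 to 0.085 in microglia, −0.11 to 0.44 in non-classical monocytes and −0.18 to 0.094 in the class difference. Hilpda went from −0.059 to 0.15 in macrophages, −0.75 to 0.76 in non-classical monocytes and −0.029 to 0.025 in the level between classes. Ankrd37 went from −0.10 to 0.34 and Ddit4 from −0.028 to 0.53 in microglia. Egln1 went from −0.32 to 0.18 in non-classical monocytes and −0.30 to 0.13 in the class difference, Bnip3 from −0.012 to 0.23 in non-classical and −0.37 to 1.24 in classical monocytes, and Epas1 from −2.92 to 0.24 in the class difference. Under the stricter gate Ankrd37 in microglia was −0.061, Egln1 in non-classical monocytes 0.055, Bnip3 in classical monocytes −0.24 and the Hilpda level −0.10. With cluster classes the Epas1 class difference was 0.89. The Hilpda level was −0.0016 under library size alone, −0.021 with doublets kept and −0.0042 at up to 5% mitochondrial UMIs. Depth kept Vegfa from being tested in any class, and Epas1 rested on 5 to 22 UMIs per library in macrophages.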
